A study of Mus musculus with 24 samples.

Results

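The genes of MHC class II antigen presentation were followed in mouse acute myeloid leukaemia (AML) cells that had been sorted into immunophenotypic subpopulations. They were taken by symbol from the deposited expression table, where H2-Aa, H2-Ab1, H2-Eb1, Cd74, H2-DMa, H2-DMb1, H2-DMb2, H2-Oa, H2-Ob and Ciita make up 10 of the 23361 gene rows. All 10 passed the filter on low values, 1 FPKM (fragments scaled to transcript length and to the fragments mapped in the library) or more in at least 4 libraries, which 11599 rows passed in all.

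The leukaemia carried NRASG12V, an activated form of the NRAS GTPase, and Mll-AF9, a fusion of the histone methyltransferase MLL with AF9, in every group, the unsorted cells included. The mice were (FVB/n X C57/BL/6J) F1 hybrids, and the cells came from spleens. The groups were MacLowKit+Sca1+ (4 libraries), MacLowKit+Sca1- (5), MacLowKit-Sca1- (5), MacHigh (5) and unsorted cells (5), and MacLow is left off the names of its 3 groups below. Mac-1 is the myeloid integrin encoded by Itgam, Kit is the receptor of stem cell factor, and Sca-1, encoded by Ly6a, is found on the surface of haematopoietic stem cells in mice. Age, the promoters that drive the leukaemia genes and whether replicates came from separate mice are not given in the sources used here, so p-values reflect only how far these libraries spread, and that spread may be technical.

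MHC class II molecules are surface heterodimers that show peptides from endocytosed proteins to CD4+ T cells, and dendritic cells, B cells and macrophages are the cells best known for making them. In mice H2-Aa and H2-Ab1 encode the alpha and beta chains of I-A, and H2-Eb1 encodes the beta chain of I-E. Cd74, the invariant chain, guides new dimers to the endosome and blocks their groove. H2-DM, a dimer of the H2-DMa product with that of H2-DMb1 or H2-DMb2, catalyses the exchange of the remaining Cd74 fragment for peptide, and H2-DO, encoded by H2-Oa and H2-Ob, inhibits H2-DM. Ciita, the class II transactivator, binds no DNA itself and is recruited by RFX, CREB and NF-Y proteins that sit on the X and Y boxes of class II promoters.

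In GENCODE vM21 on GRCm38, 8 of the 10 genes lie within 224 kb, chr17:34092340-34316674, in the class II region. On the plus strand are H2-Oa (chr17:34092340-34095234), H2-DMa (chr17:34119541-34139101), H2-DMb2 (chr17:34143307-34151555), H2-DMb1 (chr17:34153072-34160230), H2-Ob (chr17:34238903-34254414), H2-Ab1 (chr17:34257689-34269419) and H2-Eb1 (chr17:34305867-34316674), and H2-Aa (chr17:34282744-34287823) is on the minus strand. Ciita (chr16:10480059-10528418, plus strand) and Cd74, also on the plus strand, lie on other chromosomes. The expression table holds no sequence, so the sequences below are reference sequence, shown because the genes moved together across the groups and are known for promoters built on the same boxes.

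RefSeq promoters (GRCm38.p6) were found for 7 of the 10 genes, and the 150 bases before each start were searched on both strands for the Y box core ATTGG, the X box motif AGCAAC, the right part of the X box AACNNATG and the cyclic AMP response element TGACGTCA. A start here is that of the RefSeq promoter entry, which need not be the GENCODE start of the gene given above. The windows of H2-DMa and H2-DMb2 lie inside the GENCODE span of their gene, and those of H2-DMb1, H2-Oa and H2-Ob reach into it. AGCAAC and AACNNATG overlap each other where both occur. Of these motifs 3 were chosen after these promoters had been read. The windows of H2-Aa, H2-Eb1, H2-DMb2 and H2-Ob follow, each 5′ to 3′ on the strand of its gene, with the bases that GENCODE places in an exon of the same gene left off and the motif matches in capitals.
H2-Aa, chr17:34287824-34287973, minus strand: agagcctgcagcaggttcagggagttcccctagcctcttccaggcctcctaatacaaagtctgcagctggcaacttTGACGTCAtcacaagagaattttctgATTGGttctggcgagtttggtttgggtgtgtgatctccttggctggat
H2-Eb1, chr17:34305717-34305866, plus strand: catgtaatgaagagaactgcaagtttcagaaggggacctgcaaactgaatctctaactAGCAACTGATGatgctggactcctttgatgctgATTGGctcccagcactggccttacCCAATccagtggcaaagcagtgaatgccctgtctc
H2-DMb2, chr17:34145099-34145235, plus strand: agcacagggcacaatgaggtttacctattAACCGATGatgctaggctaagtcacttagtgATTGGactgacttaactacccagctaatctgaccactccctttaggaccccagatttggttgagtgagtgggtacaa
H2-Ob, chr17:34238755-34238902, plus strand: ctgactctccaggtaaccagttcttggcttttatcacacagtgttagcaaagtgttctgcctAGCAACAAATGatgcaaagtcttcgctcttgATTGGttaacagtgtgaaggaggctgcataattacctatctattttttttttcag
In H2-Eb1 the run AGCAACTGATG begins 92 bases before the start and an ATTGG 59 bases before it, and in H2-Ob the run AGCAACAAATG begins 88 and the ATTGG 57 bases before the start. H2-DMb2 holds AACCGATG and then ATTGG, 121 and 90 bases before its start. H2-DMb1 holds the same pair of motifs 92 and 61 bases before its start, both in bases that GENCODE places in an exon of H2-DMb1. The first letters of AACNNATG and ATTGG were thus 30 bases apart in H2-Eb1, 28 in H2-Ob and 31 in both H2-DMb genes. Across all 32851 windows of this length, ATTGG or its complement occurred in 24.5%, AGCAAC in 7.75%, AACNNATG in 4.43%, and AACNNATG followed by ATTGG within 40 bases in 0.207%, which is 68 windows. H2-Aa holds TGACGTCA (1.36% of all windows) 74 bases and ATTGG 48 bases before its start, and H2-Oa holds AGCAAC 77 and ATTGG 43 bases before its start. Neither window listed for H2-DMa held any of the motifs. These are letter matches and say nothing of binding in these cells.

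The libraries differed in depth by a relative estimate of 0.796 to 1.96 of the median library, read from the steps between low FPKM values. Read counts were not used here, so the absolute depth and the counting error of a value are unknown. No pair of libraries was identical (highest correlation 0.9753). Itgam averaged 61.99, 267.2, 266.7 and 633 FPKM in the Kit+Sca1+, Kit+Sca1-, Kit-Sca1- and MacHigh groups, so the MacLow groups differed among themselves, and Ly6a was low even where it was highest, at 7.666 FPKM in Kit+Sca1+ cells and 0.916 to 2.352 FPKM in the other groups. In bulk RNA, fewer cells of a type and less RNA per cell cannot be told apart.

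The classical chains and Cd74 were among the most abundant messages in Kit+Sca1+ and MacHigh cells and far lower in the other sorted groups. H2-Aa was at 4116, 6267, 6919.9 and 7275 FPKM in the Kit+Sca1+ libraries. In Kit+Sca1- it was at 299, 179, 466, 358 and 1236 FPKM and in Kit-Sca1- at 299, 175, 149.6, 359 and 629 FPKM. MacHigh libraries had 2431, 3782, 2283, 3227 and 4857 FPKM and unsorted libraries 1323, 1139, 1378, 1537 and 1928 FPKM. Every Kit+Sca1+ and MacHigh library thus lay above every unsorted library, and every unsorted library but 1 lay above the highest Kit+Sca1- value, while Kit+Sca1- and Kit-Sca1- overlapped, as did Kit+Sca1+ and MacHigh. 

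H2-Ab1, the partner chain of H2-Aa, had 2487, 4474, 4857 and 4846 FPKM in Kit+Sca1+ cells. It had 179, 124, 290.1, 205 and 741 FPKM in Kit+Sca1- cells and 180.2, 115, 100.3, 220.1 and 375 FPKM in Kit-Sca1- cells. Its MacHigh values were 1408, 2454, 1372, 1775 and 2907 FPKM and its unsorted values 842, 788, 806, 927 and 1156 FPKM. The order of the groups was that of H2-Aa, with replicate 1 of Kit+Sca1+ inside the MacHigh range and replicate 5 of Kit+Sca1- well above its group. H2-Eb1 repeated this at a lower level, with 817 to 1549 FPKM in Kit+Sca1+ cells, 35.4 to 229 in Kit+Sca1- cells, 30.7 to 118 in Kit-Sca1- cells, 473 to 1022 in MacHigh and 262 to 369.8 in unsorted cells.

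Cd74 (chr18:60803848-60812652) had the highest mean of the 10 genes in every group. It had 6289, 10352, 11452 and 11963 FPKM in Kit+Sca1+, where it ranked between 3 and 6 among all rows. It had 542, 323, 754, 533 and 2136 FPKM in Kit+Sca1- cells and 599, 361, 339.9, 679 and 1254 FPKM in Kit-Sca1-, with ranks of 19 to 144 and 36 to 147. MacHigh values were 5016, 8081, 4695, 6244 and 10128 FPKM, with ranks of 5 to 11, and unsorted values 2677, 2328, 2579.8, 2886 and 3561 FPKM. The Kit+Sca1+ and MacHigh ranges overlapped over most of their length. Together the 10 genes made up 3.03% to 4.39% of the summed FPKM of a Kit+Sca1+ library, 0.147% to 0.829% in Kit+Sca1- cells, 0.125% to 0.463% in Kit-Sca1- cells, 1.62% to 3.21% in MacHigh and 0.902% to 1.33% in unsorted cells. Mir5107 overlaps Cd74 on the same strand, so its row of up to 7608 FPKM cannot be told apart from Cd74 reads.

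**Figure D1:**
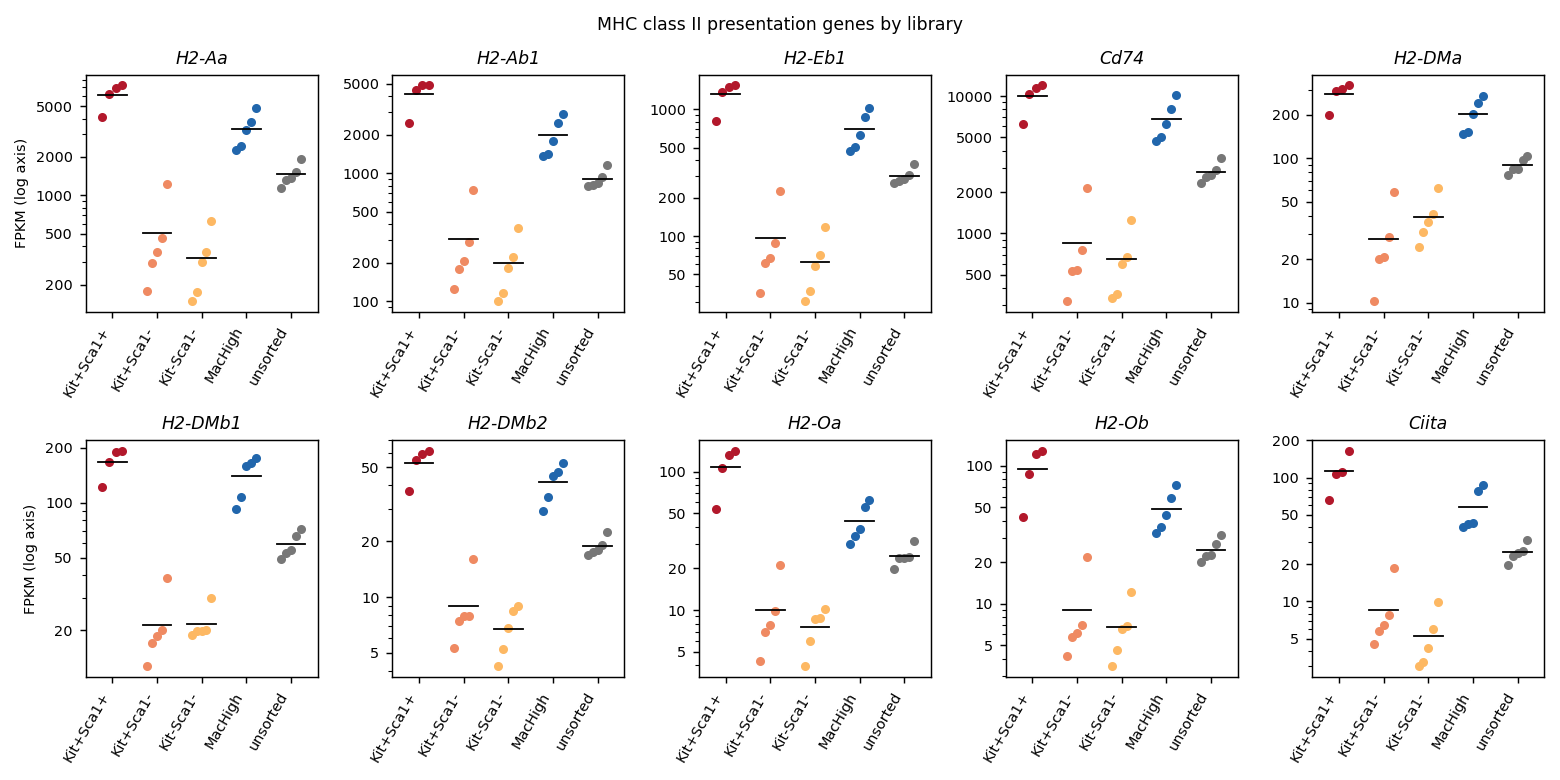
Each panel shows 1 gene, with FPKM on a log axis and 1 point per library in Kit+Sca1+ (n = 4), Kit+Sca1-, Kit-Sca1-, MacHigh and unsorted cells (n = 5 each), and a bar at the mean. In all 10 panels the Kit+Sca1+ and MacHigh points stand above the Kit+Sca1- and Kit-Sca1- points, and the mean of H2-Aa is highest in Kit+Sca1+ (6144 FPKM) and lowest in Kit-Sca1- (322.3 FPKM).

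The peptide exchange genes had the same 2 levels of groups, with a difference at the low end. H2-DMa had 199, 292, 301 and 321 FPKM in Kit+Sca1+ cells, 20.8, 10.3, 28.6, 19.9 and 58.3 FPKM in Kit+Sca1- cells and 31.1, 24.2, 36.0, 41.1 and 62.7 FPKM in Kit-Sca1-. MacHigh libraries had 149, 243, 153, 204 and 270.4 FPKM and unsorted libraries 84.8, 77.2, 84.3, 98.1 and 104 FPKM. Here Kit-Sca1- had the higher mean of the 2 lowest groups, 39.0 ± 14.6 FPKM against 27.6 ± 18.4 FPKM in Kit+Sca1- (SD, n = 5 each), although the values overlapped. Exons of Brd2, a bromodomain gene on the opposite strand, overlap H2-DMa, and the strand used in counting is not given in the sources used here, so reads of that stretch cannot be told apart. Brd2 itself averaged 100.7 FPKM in Kit+Sca1+ cells and 80.25 to 90.21 FPKM in the other groups.

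H2-DMb1 ranged from 121 to 193 FPKM in Kit+Sca1+ cells, 12.7 to 38.5 in Kit+Sca1- cells, 19.0 to 30.2 in Kit-Sca1- cells, 93.0 to 175 in MacHigh and 49.5 to 72.2 in unsorted cells. H2-DMb2 had 37.1, 61.7, 55.0 and 59.0 FPKM in Kit+Sca1+ cells, 7.87, 5.32, 7.42, 7.87 and 16.1 FPKM in Kit+Sca1- cells and 8.38, 4.24, 5.23, 6.81 and 8.93 FPKM in Kit-Sca1-. In MacHigh it had 34.8, 45.1, 29.2, 47.6 and 52.6 FPKM and in unsorted cells 18.0, 17.0, 17.5, 22.4 and 19.0 FPKM. For both beta chains the Kit+Sca1+ and MacHigh values overlapped, as did Kit+Sca1- and Kit-Sca1-. The reference transcripts of H2-DMb1 (1404 bases) and H2-DMb2 (1424 bases) were identical at 1179 of 1255 aligned positions (93.9%), so the split of reads between them is uncertain.

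H2-Oa and H2-Ob, the chains of the H2-DM inhibitor, had most of their Kit+Sca1+ values above the highest MacHigh value. The same held for every other gene of the set except H2-DMb1. H2-Oa had 53.9, 105, 142 and 132 FPKM in Kit+Sca1+ cells, 7.81, 4.30, 9.85, 6.94 and 21.1 FPKM in Kit+Sca1- cells and 8.75, 5.99, 3.94, 8.68 and 10.2 FPKM in Kit-Sca1-. It had 38.8, 55.4, 34.5, 30.1 and 62.8 FPKM in MacHigh and 23.7, 19.9, 23.9, 24.3 and 31.8 FPKM in unsorted cells. Of the 4 Kit+Sca1+ libraries 3 lay above the highest MacHigh library and replicate 1 lay within the MacHigh range. H2-Ob ranged from 42.3 to 129 FPKM in Kit+Sca1+ cells, 4.15 to 21.9 in Kit+Sca1- cells, 3.52 to 12.3 in Kit-Sca1- cells, 32.5 to 73.3 in MacHigh and 20.0 to 31.4 in unsorted cells, again with 3 Kit+Sca1+ libraries above all MacHigh libraries. BC051537, on the opposite strand of H2-Oa, reached at most 2.16 FPKM in any library.

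Ciita, the regulator, was detected in all 24 libraries, at 66.1, 111, 165 and 108 FPKM in Kit+Sca1+ cells. It had 6.45, 4.54, 7.72, 5.73 and 18.5 FPKM in Kit+Sca1- cells and 4.25, 3.00, 3.26, 5.96 and 9.91 FPKM in Kit-Sca1-, where the lowest value of any member in any library, 3.00 FPKM, was found. MacHigh libraries had 39.6, 87.9, 42.6, 42.1 and 77.4 FPKM and unsorted libraries 23.4, 25.4, 24.4, 19.6 and 31.5 FPKM. The Kit+Sca1+ and MacHigh values overlapped, and both groups lay above all other libraries. Exons of Dexi overlap Ciita on the opposite strand, and Dexi averaged 13.88, 3.942, 5.461, 11.36 and 6.635 FPKM in Kit+Sca1+, Kit+Sca1-, Kit-Sca1-, MacHigh and unsorted cells, so the share of reads from each cannot be told apart.

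Differences between groups were tested with limma on log2(FPKM + 1) over all 11599 rows and 24 libraries, with Benjamini-Hochberg adjustment and a threshold of 0.05, and the values below are differences ± SE on that scale, which understates the change of low genes. In limma's F test over the 4 sorted groups all 10 genes were called, where 83.2% of all rows were. Because so many rows differed between these groups, counts are read against the share of all rows called. Comparisons with MacHigh share the MacHigh libraries, and likewise for the other groups.

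Kit+Sca1+ cells had more of every gene than Kit+Sca1- cells. All 10 rose, with no overlap of values for any of them, where 55.2% of rows were called and 26.8% were called higher, and 39.4% of rows had groups that did not overlap. The median difference of the 10 was 3.56, and that of all rows -0.02. H2-Eb1 and H2-Ab1 differed most, by 4.01 ± 0.40 and 4.00 ± 0.41, and H2-DMb2 least, by 2.51 ± 0.23. Mean FPKM was 5.96 to 13.7 times as high in Kit+Sca1+, or 7.47 to 20.9 times without Kit+Sca1- replicate 5, and the highest adjusted p of the 10, for H2-Ob, was 1.01e-07 (limma).

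Against Kit-Sca1- cells all 10 genes also rose in Kit+Sca1+ cells without overlap, where 45.2% of rows were called, 21.8% higher, and 33.8% did not overlap. The median difference was 3.86, against -0.03 over all rows. H2-Ab1 rose by 4.50 ± 0.41, H2-Eb1 by 4.48 ± 0.40, H2-Aa by 4.41 ± 0.42 and Ciita by 4.21 ± 0.34. The H2-DM genes rose less, H2-DMa by 2.85 ± 0.32 and H2-DMb2 by 2.83 ± 0.23, and the highest adjusted p of the 10 was 1.94e-07 for H2-DMa (limma).

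Kit+Sca1- cells had less of all 10 genes than MacHigh cells. None of the values overlapped, where 62.8% of rows were called, 30.3% lower, and 45% did not overlap. The median difference was -2.81, against 0.03 over all rows. The difference was largest for Cd74 (-3.26 ± 0.39), H2-Eb1 (-3.07 ± 0.38) and H2-DMa (-3.02 ± 0.30) and smallest for H2-Oa (-2.16 ± 0.31) and H2-DMb2 (-2.16 ± 0.22), with adjusted p values of at most 2.96e-06 (limma).

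In Kit-Sca1- cells, too, all 10 genes were lower than in MacHigh cells without overlap, where 50.8% of rows were called, 26.2% lower, and 35.7% did not overlap. The median difference was -2.98, against -0.02 over all rows. H2-Eb1 (-3.55 ± 0.38), Cd74 (-3.51 ± 0.39), H2-Aa (-3.50 ± 0.40) and H2-Ab1 (-3.42 ± 0.38) ranked 31, 33, 34 and 39 by size of difference among the 11599 rows, and all 10 ranked within the first 120. Ciita, at -3.25 ± 0.32, stood next to the classical chains, and H2-DMa, at -2.39 ± 0.30, differed least. Adjusted p values were at most 2.20e-06 (limma).

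**Figure D2:**
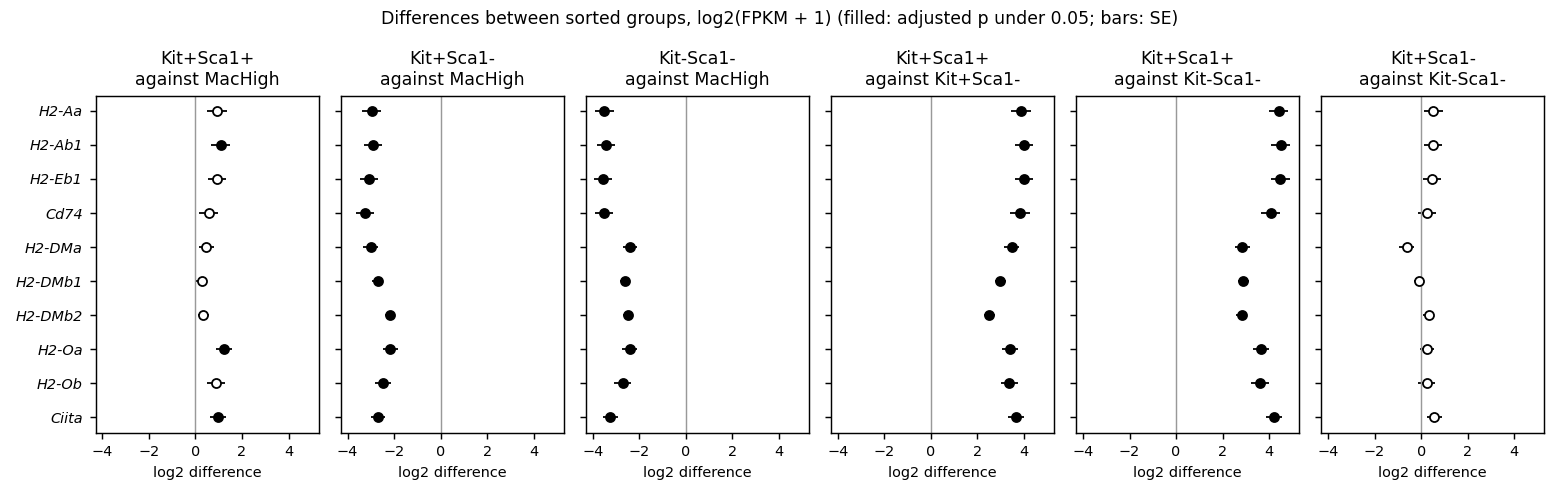
Each panel is 1 of the 6 comparisons between sorted groups, with the difference in log2(FPKM + 1) on the x axis, 1 row per gene, bars for the SE and filled points for an adjusted p under 0.05 (limma). All 10 points are filled in 4 panels, 3 are filled for Kit+Sca1+ against MacHigh (H2-Ab1, H2-Oa and Ciita) and none for Kit+Sca1- against Kit-Sca1-.

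Between the 2 groups with high levels, Kit+Sca1+ and MacHigh, all 10 genes had the higher mean in Kit+Sca1+, by 1.2 to 2.44 times, but only some passed the test. H2-Oa rose by 1.23 ± 0.33 (limma, adjusted p = 0.00425), H2-Ab1 by 1.09 ± 0.41 (adjusted p = 0.0325) and Ciita by 0.96 ± 0.34 (adjusted p = 0.025). These 3 of 10, or 6 at an unadjusted p under 0.05, compare with 46% of all rows called and 23.6% called higher, so the share is near that of all rows. No member had groups that did not overlap, where 37.5% of rows did. H2-Aa at 0.91 ± 0.42, H2-Eb1 at 0.93 ± 0.40 and H2-Ob at 0.89 ± 0.38 had adjusted p values of 0.0817, 0.0617 and 0.0566 (limma). Cd74 (0.57 ± 0.41) and the H2-DM genes (0.46 ± 0.32 for H2-DMa, 0.28 ± 0.24 for H2-DMb1 and 0.34 ± 0.23 for H2-DMb2) had adjusted p values of 0.241 to 0.357 (limma). The count was 1, H2-Oa, without MacHigh replicate 1, 3 or 4 or Kit+Sca1+ replicate 2 or 3, and 5 without MacHigh replicate 5 or Kit+Sca1+ replicate 1. It was 6 with libraries scaled to the same FPKM sum, where 41.6% of rows were called and the median of all rows moved by 0.11. With the prefix of the sample name (described below) as a block it was also 6, where 56.7% of rows were called. H2-Aa, H2-Eb1 and H2-Ob were then called too (adjusted p = 0.0224, 0.0252 and 0.0164, limma). With the replicate number of the title as a block it was 8, where 48.4% of rows were called. H2-Oa was called in each of the 9 fits that left out a library of either group (highest adjusted p 0.0194, limma).

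Kit+Sca1- and Kit-Sca1- cells, which had low levels, did not differ past the threshold in any of these genes. With limma 0 of 10 were called, and 1, H2-DMa, had an unadjusted p under 0.05, where 50.2% of rows were called. No gene had groups that did not overlap, where 28.8% of rows did. The median difference was 0.29, against -0.02 over all rows. H2-DMa was at -0.63 ± 0.30 (adjusted p = 0.0889, limma), while the classical chains were at 0.53 ± 0.40 (H2-Aa), 0.50 ± 0.38 (H2-Ab1) and 0.48 ± 0.38 (H2-Eb1) and Ciita at 0.56 ± 0.32. H2-DMa fell by 0.67 ± 0.26 with the prefix of the sample name as a block (adjusted p = 0.0337, limma) and changed by -0.95 ± 0.26 without Kit+Sca1- replicate 5 (adjusted p = 0.00421). Without that library Cd74, H2-Oa and H2-Ob were at -0.16, -0.04 and -0.12, so their sign in this comparison rested on it. With libraries scaled to the same FPKM sum H2-DMb2 and Ciita were called higher in Kit+Sca1-, by 0.52 ± 0.20 and 0.75 ± 0.30 (adjusted p = 0.0305 and 0.0391, limma), where the median of all rows moved by 0.22.

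Unsorted cells lay between the high and the low groups for every gene. Against them all 10 genes rose in Kit+Sca1+ (median 1.91), where 33% of rows were called, 17.2% higher. All 10 fell in Kit+Sca1- (median -1.70), where 47.4% of rows were called, 23.8% lower. All 10 also fell in Kit-Sca1- (median -1.97), where 14.6% of rows were called, 5.67% higher and 8.91% lower. Values did not overlap with those of unsorted cells for 10 of the genes in Kit+Sca1+ (30.2% of rows), 7 in Kit+Sca1- (32.3% of rows) and 10 in Kit-Sca1- (13.3% of rows). In MacHigh 9 of 10 were higher than in unsorted cells (median 1.13, with 39.4% of rows called and 21.3% called higher), and 9 had groups that did not overlap, as did 31.7% of rows. The exception was H2-Oa, at 0.78 ± 0.31 (adjusted p = 0.0531), and at 0.81 ± 0.28 with the prefix as a block (adjusted p = 0.0209, limma). The count was 5 without MacHigh replicate 5.

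The sample names carry 6 prefixes (11, 12, 26, L, N and R) that recur across groups, and what a prefix stands for is not given in the sources used here. The library with prefix R was the highest of its group for 10 of 10 genes in Kit+Sca1- and in Kit-Sca1-, for 8 in MacHigh, for 8 in unsorted cells and for 3 in Kit+Sca1+, where the same library was the highest for 29.1%, 20%, 23%, 17.9% and 25.6% of all rows tested. None of the other prefixes was at the same end in every group it had. Prefixes 11 and L were the highest for 0 genes in each of their groups. Of all rows tested, prefix 11 was the highest for 15.8% to 28.6% in its groups and prefix L for 18.0% to 30.1%. Prefix L was the lowest for 6 in MacHigh (18.9% of rows) and for 1 in unsorted cells (16.7%). Prefix 26 was the lowest for 10 of 10 genes in Kit+Sca1- (22.6% of rows), 6 in Kit-Sca1- (29.5%) and 8 in unsorted cells (26.6%). It was the highest for 6 in Kit+Sca1+ (26.3%) and for 2 in MacHigh (19.9%), the latter near the share of all rows. Prefix 11 was the lowest for 10 of 10 in Kit+Sca1+ (34.7% of rows). In MacHigh it was the lowest for 3, near the share of all rows (24.3%), and in Kit+Sca1- and Kit-Sca1- for 0 (16.4% and 22.6% of rows).

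Within prefixes the differences between groups kept their direction. Kit+Sca1+ was above MacHigh for all 10 genes in each of the 3 prefixes that have both, with medians of 0.44 (prefix 11), 0.85 (prefix 26) and 0.51 (prefix R) on the log2 scale. Kit+Sca1- was below MacHigh for all 10 in 5 of 5 prefixes, with medians from -4.15 (prefix 26) to -1.99 (prefix R), and Kit-Sca1- was below MacHigh for all 10 in 4 of 4. Kit+Sca1+ was above Kit+Sca1- in 3 of 3 prefixes and above Kit-Sca1- in 4 of 4 for all 10 genes, and MacHigh above unsorted cells in 4 of 4. Between Kit+Sca1- and Kit-Sca1- the prefixes disagreed, with 2, 7, 8 and 9 of the 10 genes higher in Kit+Sca1- in prefixes 11, 26, L and R.

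**Figure D3:**
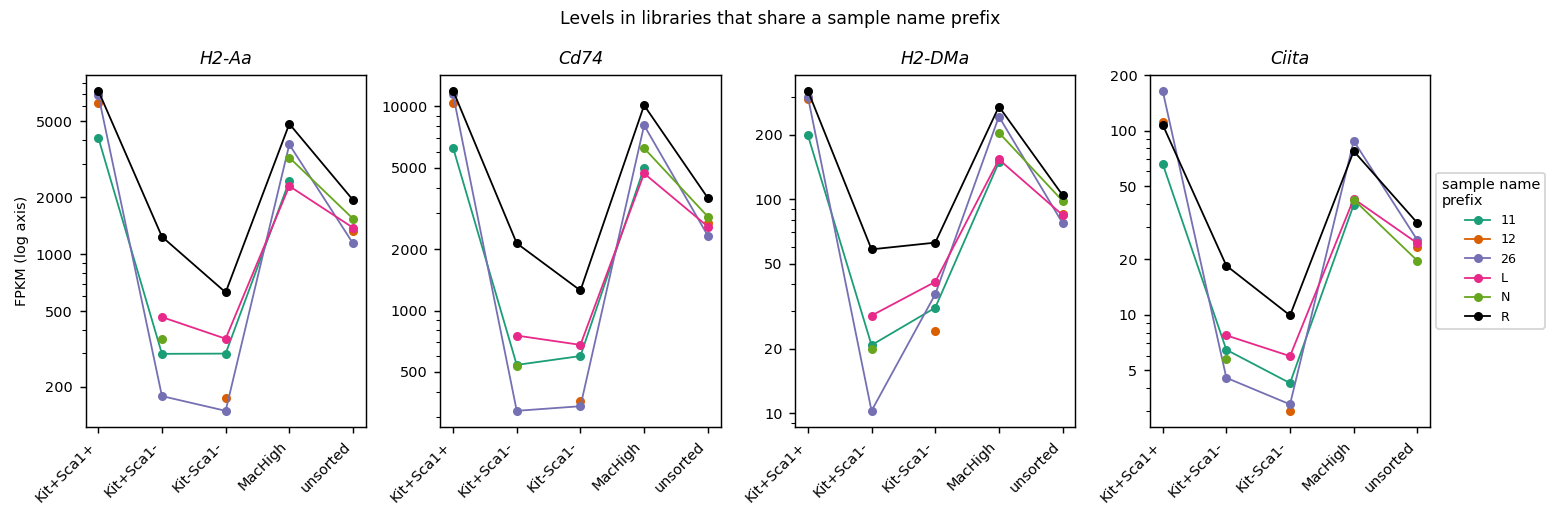
FPKM on a log axis of H2-Aa, Cd74, H2-DMa and Ciita in Kit+Sca1+, Kit+Sca1-, Kit-Sca1-, MacHigh and unsorted cells, with 1 colour per sample name prefix and lines between neighbouring groups that both have it. The prefix R points are the highest in Kit+Sca1- and Kit-Sca1- in all 4 panels, at 1236 and 629 FPKM for H2-Aa.

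Ratios between genes of a library do not depend on how the library was scaled. Some of them differed between groups without overlap, although 0 of 48 tests passed after adjustment. H2-DMa relative to H2-Aa was 0.0457 ± 0.00222 in Kit+Sca1+ (n = 4), 0.0583 ± 0.00827 in Kit+Sca1- cells, 0.139 ± 0.0584 in Kit-Sca1- cells, 0.0623 ± 0.00426 in MacHigh and 0.0622 ± 0.00508 in unsorted cells (mean ± SD, n = 5). The Kit-Sca1- libraries had 0.104, 0.138, 0.241, 0.115 and 0.0996, all above every library of the other groups. Reads of the stretch shared with Brd2 cannot be told apart in any ratio with H2-DMa. In Kit-Sca1- cells Brd2 averaged 85.59 FPKM and H2-DMa 39.0 FPKM. The log2 ratio was 1.08 ± 0.24 higher in Kit-Sca1- than in MacHigh (exact permutation p = 0.00794, adjusted over 48 ratio tests 0.0544). Between Kit+Sca1- and Kit-Sca1- it differed by -1.19 ± 0.25 (exact permutation p = 0.00794, adjusted 0.0544).

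Cd74 relative to H2-Aa was 1.62 ± 0.0614 in Kit+Sca1+ cells, 1.69 ± 0.139 in Kit+Sca1- cells, 2.04 ± 0.141 in Kit-Sca1- cells, 2.06 ± 0.0743 in MacHigh and 1.93 ± 0.0928 in unsorted cells. Both Kit+ groups thus had less Cd74 per H2-Aa than MacHigh without overlap, with differences of -0.34 ± 0.04 on the log2 scale in Kit+Sca1+ (exact permutation p = 0.0159, adjusted 0.0586) and -0.29 ± 0.06 in Kit+Sca1- (exact permutation p = 0.00794, adjusted 0.0544). The inhibitor chain H2-Oa relative to H2-DMa divided the groups in the same way, at 0.379 ± 0.0844 in Kit+Sca1+ cells, 0.369 ± 0.0298 in Kit+Sca1- cells, 0.202 ± 0.0681 in Kit-Sca1- cells, 0.219 ± 0.0423 in MacHigh and 0.275 ± 0.0225 in unsorted cells. The log2 ratio was higher than in MacHigh by 0.79 ± 0.22 in Kit+Sca1+ (exact permutation p = 0.0159, adjusted 0.0586) and by 0.78 ± 0.15 in Kit+Sca1- (exact permutation p = 0.00794, adjusted 0.0544). H2-DMb2 relative to H2-DMb1 was highest in Kit+Sca1-, at 0.417 ± 0.0265, against 0.302 ± 0.027 in MacHigh (exact permutation p = 0.00794, adjusted 0.0544), with the reservation on shared reads given above.

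H2-Ob to H2-DMb1 averaged 0.545, 0.382, 0.3, 0.355 and 0.424 in Kit+Sca1+, Kit+Sca1-, Kit-Sca1-, MacHigh and unsorted cells. Its log2 ratio was 0.88 ± 0.30 higher in Kit+Sca1+ than in Kit-Sca1-, with overlap (exact permutation p = 0.0317, adjusted 0.0847). Some other ratios had group means close to each other. H2-Eb1 to H2-Aa was 0.212, 0.193, 0.199, 0.21 and 0.206 in Kit+Sca1+, Kit+Sca1-, Kit-Sca1-, MacHigh and unsorted cells, and Ciita to H2-Aa was 0.0181, 0.0189, 0.0171, 0.0174 and 0.0174 in the same order, while the group means of H2-Aa itself ranged over more than 10-fold. Between Kit+Sca1+ and MacHigh the log2 ratio of Ciita to H2-Aa differed by 0.06 ± 0.20 (exact permutation p = 0.794). Of the 48 exact two-sided tests, 20 had an unadjusted p under 0.05 and 13 of them were at the smallest p that the group sizes allow (0.0159 for 4 against 5 libraries, 0.00794 for 5 against 5), and 0 passed after Benjamini-Hochberg adjustment, with a lowest adjusted p of 0.0544.

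**Figure D4:**
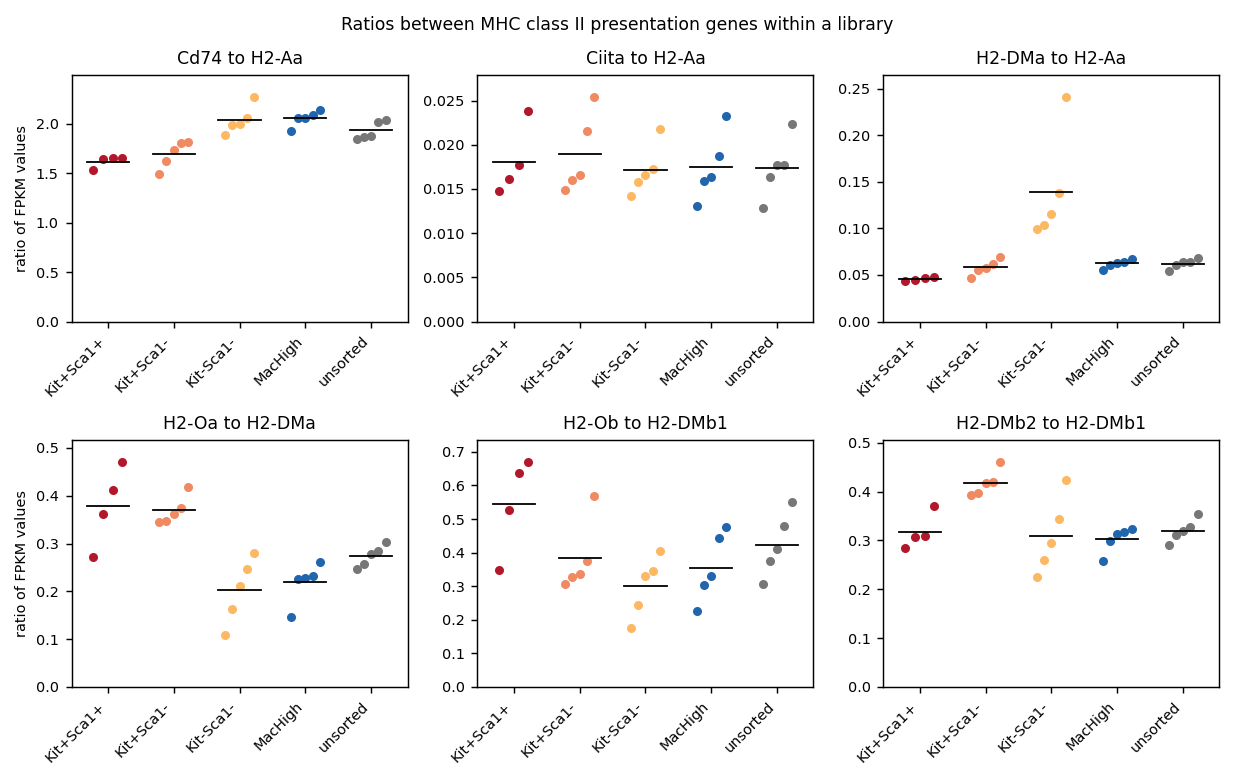
Ratios of FPKM values of 2 genes in the same library, 1 panel per ratio on an axis from 0, with 1 point per library and a bar at the mean, for Kit+Sca1+ (n = 4), Kit+Sca1-, Kit-Sca1-, MacHigh and unsorted cells (n = 5 each). H2-DMa to H2-Aa stands apart in Kit-Sca1- (mean 0.139), and H2-Oa to H2-DMa is highest in both Kit+ groups (means 0.379 and 0.369).

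Over the 24 libraries, log2 levels of the 10 genes went together closely. Pearson's r over the 45 pairs ran from 0.9455 (H2-DMa and H2-Oa) to 0.9992 (H2-Ab1 and H2-Eb1), with a median of 0.982. After group means were subtracted, it ran from 0.7685 (H2-DMb2 and Ciita) to 0.9971 (H2-Ab1 and H2-Eb1), with a median of 0.9007. The libraries share group, prefix and depth, so these values describe the table and carry no test. 

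The rows whose pattern was most like the mean of H2-Aa, H2-Ab1, H2-Eb1 and Cd74 over the 24 libraries were Sept3 (r = 0.9855), Dpp4 (0.9855), Batf3 (0.9836), Traf1 (0.9824), Asb2 (0.9806), Arhgap22 (0.9786), H2-Ea-ps (0.9781), Zbtb46 (0.9777), Phf11a (0.9759) and Cdk14 (0.9758). Among the 10 genes themselves, H2-DMa was least like that mean (0.9658), below all of these rows. Batf3, a transcription factor of conventional dendritic cells, averaged 79.5 ± 19.7 FPKM in Kit+Sca1+ cells, 7.64 ± 7.85 in Kit+Sca1- cells, 5.60 ± 4.18 in Kit-Sca1- cells, 32.6 ± 8.28 in MacHigh and 16.9 ± 3.43 in unsorted cells. With group means subtracted, the likeness was highest for Mycl1 (0.9752), Arhgap22 (0.9667) and Batf3 (0.9593), and Zbtb46 (0.9381) and Dpp4 (0.9376) were again among the first 10.

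Both other class II chain genes named here had the same order of group means as H2-Aa. The E alpha gene H2-Ea-ps, annotated as a polymorphic pseudogene and lacking part of its promoter in the C57BL/6 strain, averaged 152 ± 40.4 FPKM in Kit+Sca1+ cells, 10.6 ± 7.11 in Kit+Sca1- cells, 5.94 ± 3.71 in Kit-Sca1- cells, 52.7 ± 15.7 in MacHigh and 27.8 ± 2.88 in unsorted cells. It rose by 1.52 ± 0.33 in Kit+Sca1+ against MacHigh (adjusted p = 0.000649, limma), more than any of the 10 genes. H2-Eb2, a beta chain gene beside H2-Eb1 with the same pair of motifs in its promoter, had low values, with means of 2.81 ± 0.600 FPKM in Kit+Sca1+ cells, 0.535 ± 0.253 in Kit+Sca1- cells, 0.324 ± 0.145 in Kit-Sca1- cells, 1.72 ± 0.764 in MacHigh and 0.962 ± 0.131 in unsorted cells. It rose in Kit+Sca1+ (0.52 ± 0.16, adjusted p = 0.0117, limma) and fell in Kit+Sca1- (-0.79 ± 0.15, adjusted p = 0.000101) and Kit-Sca1- (-0.999 ± 0.15, adjusted p = 1.48e-05) relative to MacHigh.

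A list of 16 further pathway genes, all tested, held mostly genes that supply and trim peptides, with the ubiquitin ligases March1 and March8 and the chain genes H2-Ea-ps and H2-Eb2. In Kit+Sca1+ against MacHigh 3 were higher and 8 lower (median -0.58, against 0.90 for the 10 presentation genes), where 46% of all rows were called, 23.6% higher and 22.4% lower. The higher ones were H2-Ea-ps, H2-Eb2 and Cst3, and the lower ones were Ctss, Ctsl, Ctsd, Ctsh, Ctsz, Ifi30, Sppl2a and March8. Ctss, the cathepsin that cuts the invariant chain, averaged 336 ± 49.2 FPKM in Kit+Sca1+ cells, 34.4 ± 20.5 in Kit+Sca1- cells, 227 ± 54.5 in Kit-Sca1- cells and 780.1 ± 108 in MacHigh, a fall in Kit+Sca1+ relative to MacHigh (-1.21 ± 0.28, adjusted p = 0.00104, limma). Ctsh (-1.47 ± 0.15) and Ctsz (-0.94 ± 0.12), also cathepsins, were the most clearly changed of the list (adjusted p = 7.59e-08 and 1.51e-06, limma). Cst3, the cathepsin inhibitor cystatin C, was at 7398 ± 1811 FPKM in Kit+Sca1+ cells and 2863 ± 620.1 FPKM in MacHigh and rose by 1.36 ± 0.27 (adjusted p = 0.000276, limma).

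Against MacHigh, 1 of these 16 genes was higher and 13 lower in Kit+Sca1- cells (median -1.74), where 62.8% of rows were called and 30.3% lower. The counts were the same in Kit-Sca1- cells (median -1.08), where 50.8% of rows were called and 26.2% lower. Lgmn, the asparaginyl endopeptidase legumain, averaged 4.19 ± 2.13 FPKM in Kit+Sca1-, against 157 ± 31.4 FPKM in MacHigh (-5.02 ± 0.28, adjusted p = 8.24e-13, limma). Between Kit+Sca1- and Kit-Sca1-, 1 of the 16 was higher and 9 were lower in Kit+Sca1-, where 50.2% of rows were called, 24% higher and 26.3% lower. The higher one was Mreg, melanoregulin (1.86 ± 0.15), and among the lower ones Ifi30, the thiol reductase that unfolds antigens in the endosome, changed by -2.54 ± 0.21 (adjusted p = 1.96e-09, limma). March1, the ubiquitin ligase that removes class II from the surface, averaged 55.0 ± 8.26 FPKM in Kit+Sca1+ cells, 5.99 ± 3.73 in Kit+Sca1- cells, 16.4 ± 3.75 in Kit-Sca1- cells and 51.9 ± 6.31 in MacHigh.

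The factors that recruit Ciita and those known to act on its promoters were a list of 18, of which 17 were tested. In Kit+Sca1+ against MacHigh 4 were higher and 5 lower (median 0.02), a share near the 46% of all rows called. Rfx5, the large RFX subunit, was at 13.4 ± 1.81 FPKM in Kit+Sca1+ cells and 10.4 ± 2.39 FPKM in MacHigh (0.36 ± 0.14, adjusted p = 0.0446, limma), and Nfya, an NF-Y subunit, at 49.2 ± 4.73 FPKM in Kit+Sca1+ cells and 39.3 ± 5.24 FPKM in MacHigh (0.32 ± 0.13, adjusted p = 0.0393). The other RFX subunits, Rfxap (0.16 ± 0.09) and Rfxank (-0.14 ± 0.08), did not pass. Over the 5 groups the means of Rfxap lay between 11.0 and 13.7 FPKM and those of Creb1, which binds the X box region, between 16.8 and 19.0 FPKM.

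The interferon regulatory factors Irf8 and Irf4 differed in opposite directions between Kit+Sca1+ and MacHigh. Irf8, which dendritic cell and monocyte lineages need, averaged 648 ± 142 FPKM in Kit+Sca1+ cells, 73.0 ± 53.4 in Kit+Sca1- cells, 225 ± 42.0 in Kit-Sca1- cells and 214 ± 39.6 in MacHigh, a rise of 1.58 ± 0.30 in Kit+Sca1+ against MacHigh (adjusted p = 0.000183, limma). Irf4 averaged 0.818 ± 0.114 FPKM in Kit+Sca1+ cells, 0.580 ± 0.275 in Kit+Sca1- cells, 2.43 ± 1.18 in Kit-Sca1- cells and 21.7 ± 5.19 in MacHigh, a difference of -3.62 ± 0.21 in Kit+Sca1+ against MacHigh (adjusted p = 7.88e-12, limma). Between Kit-Sca1- and MacHigh, where Ciita differed by -3.25 ± 0.32, Irf8 differed by 0.07 ± 0.29 (adjusted p = 0.851, limma). Jak2, a kinase of interferon gamma signalling, rose by 0.61 ± 0.10 in Kit+Sca1+ against MacHigh (adjusted p = 4.62e-05, limma).

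Costimulatory ligands, which T cells read beside class II, were a list of 9 with 6 tested. In Kit+Sca1+ against MacHigh 1 was higher and 3 lower, where 23.6% and 22.4% of all rows were. Cd86 was the higher one, at 75.5 ± 17.9 FPKM in Kit+Sca1+ cells and 18.9 ± 3.31 FPKM in MacHigh (1.93 ± 0.30, adjusted p = 1.73e-05, limma). Tnfsf9 (4-1BB ligand) was at 2.64 ± 0.413 FPKM in Kit+Sca1+ cells and 34.2 ± 5.97 FPKM in MacHigh (-3.26 ± 0.21, adjusted p = 4.44e-11) and Cd80 differed by -1.09 ± 0.16. All 6 were lower than in MacHigh in Kit+Sca1- (30.3% of rows called lower) and in Kit-Sca1- (26.2%).

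Markers of other cells that make class II moved with the 10 genes in part. Of 16 conventional dendritic cell genes 15 were tested, and 10 were higher and 3 lower in Kit+Sca1+ against MacHigh. Of all rows in this comparison 23.6% were called higher and 22.4% lower, which also stands behind the counts of the other marker lists below. Their summed level was 828 to 1384 FPKM in Kit+Sca1+ cells, 183.4 to 335.9 in Kit+Sca1- cells, 225.6 to 355.5 in Kit-Sca1- cells, 677.6 to 1238 in MacHigh and 433.8 to 528.8 in unsorted cells, with Kit+Sca1+ and MacHigh above the other groups as for the class II genes. None of the 16 was at 0.001 FPKM, the value that stands for 0, in all libraries of a group. Their part in the class II levels was not tested.

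Within this list the high groups differed in which genes they had. Xcr1 and Clec9a, surface receptors of the cross-presenting type of dendritic cell, were at 104 ± 41.8 and 122 ± 53.8 FPKM in Kit+Sca1+ and at 12.2 ± 3.68 and 17.8 ± 6.83 FPKM in MacHigh. Itgae and Cadm1, also known from that type, rose by 4.57 ± 0.20 and 4.15 ± 0.27 (adjusted p = 1.12e-13 and 4.58e-11, limma). Cd209a and Clec10a, lectins of the other type, were at 1.50 ± 1.20 and 15.8 ± 6.46 FPKM in Kit+Sca1+ and at 140.2 ± 89.6 and 98.1 ± 32.5 FPKM in MacHigh, differences of -5.63 ± 0.46 and -2.60 ± 0.25 (adjusted p = 1.65e-09 and 1.89e-08). Zbtb46, a factor of both types, was at 45.1 ± 14.5 FPKM in Kit+Sca1+ cells and 27.4 ± 7.51 FPKM in MacHigh and did not pass (0.67 ± 0.33, adjusted p = 0.102, limma).

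**Figure D5:**
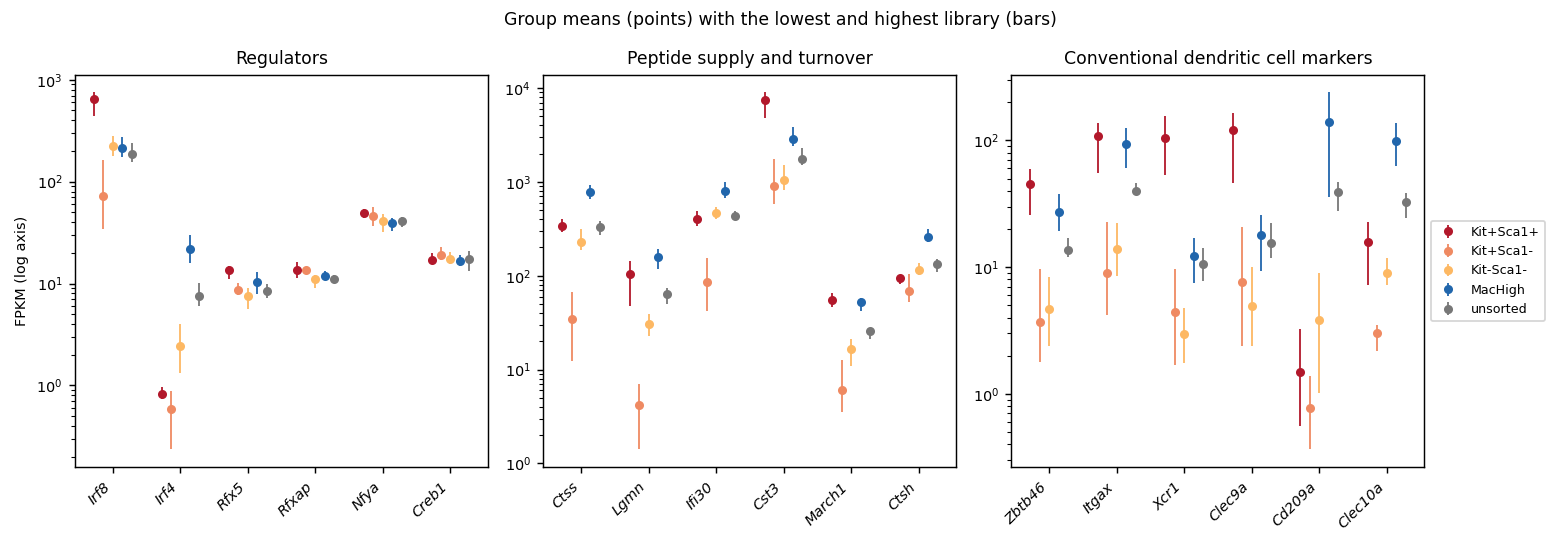
Group means (points) with the lowest and highest library (bars), in FPKM on a log axis, of regulators, of genes for peptide supply and class II turnover, and of conventional dendritic cell markers, in Kit+Sca1+ (n = 4), Kit+Sca1-, Kit-Sca1-, MacHigh and unsorted cells (n = 5 each). Irf4, Cd209a and Clec10a are highest in MacHigh, and Irf8, Cst3, Xcr1 and Clec9a in Kit+Sca1+.

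Genes of B cells, another source of class II, were at low levels. Pax5 and Ebf1 were at 0.001 FPKM in 24 of 24 libraries, Cd79a reached 0.641 FPKM at most, and the 12 B cell genes summed to 35.41 to 41.81 FPKM in Kit+Sca1+ cells, 20.25 to 31.8 in Kit+Sca1- cells, 23.49 to 29.98 in Kit-Sca1- cells, 45.1 to 91.3 in MacHigh and 32.46 to 39.22 in unsorted cells, of which Cd79b gave 14.08 to 29.75 FPKM. Of 5 tested, 2 were higher in Kit+Sca1+ than in MacHigh and 2 lower, led by Fcrla (2.04 ± 0.19) and Fcer2a (-2.84 ± 0.26). Genes of plasmacytoid dendritic cells, 9 in all, summed to 114.9 to 142.2 FPKM in Kit+Sca1+ cells, 59.8 to 83.97 in Kit+Sca1- cells, 100.8 to 142.8 in Kit-Sca1- cells, 94.15 to 153.3 in MacHigh and 87.15 to 105 in unsorted cells, and their defining gene Siglech reached 1.69 FPKM at most. Of 8 tested, 3 were higher and 1 lower in Kit+Sca1+ than in MacHigh, led by Ccr9 (1.73 ± 0.10) and Cox6a2 (2.28 ± 0.29). Of 12 T cell genes, which summed to 29.99 to 57.91 FPKM in Kit+Sca1+ cells and 10.03 to 12.22 FPKM in MacHigh, 7 were tested and 3 were higher in Kit+Sca1+, led by Cd8a (3.76 ± 0.28), also made by the cross-presenting type of dendritic cell, and Lck (2.35 ± 0.25). Cd3e, a defining T cell gene, reached 0.0901 FPKM at most.

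Red pulp macrophage genes, 12 in all, summed to 710.5 to 1891 FPKM in Kit+Sca1+ cells, 79.77 to 110.4 in Kit+Sca1- cells, 39.45 to 98.83 in Kit-Sca1- cells, 348.2 to 800.9 in MacHigh and 292.2 to 393.8 in unsorted cells, with none at 0.001 FPKM in all libraries of a group. Here too Kit+Sca1+ and MacHigh were above the low groups, and the part of these genes in the class II levels was not tested. In Kit+Sca1+ against MacHigh 7 were higher and 1 lower (23.6% and 22.4% of all rows), led by Vcam1 (4.62 ± 0.36) and Cd5l (4.14 ± 0.33). Monocyte genes, 10 in all, went the other way, with all 10 lower in Kit+Sca1+ than in MacHigh (22.4% of all rows), led by Ccr2 (-3.44 ± 0.14) and Fn1 (-5.92 ± 0.35).

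Kit+Sca1- replicate 5, the library with the highest class II levels of its group, also had the highest sum of the conventional dendritic cell genes there, 335.9 FPKM against 183.4 to 200.9 FPKM in the other 4 libraries. Its sums were also the highest for the T cell genes (30.18 FPKM, the others 8.37 to 15.32), the costimulatory ligands (59.7 FPKM, the others 21.46 to 34.67) and the red pulp macrophage genes (110.4 FPKM, the others 79.77 to 105.6). Its monocyte and plasmacytoid sums, 1317 and 74.41 FPKM, were not the highest of the group, and its B cell sum, 29.51 FPKM, lay within the range of the others (20.25 to 31.8 FPKM). The part of these markers in its class II level was not tested. Without it all 10 genes were still called lower in Kit+Sca1- than in MacHigh, and higher in Kit+Sca1+ than in Kit+Sca1- (limma).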

How the data were processed

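RNA of 24 libraries was analysed from 1 deposited table of FPKM values with 1 column per library, each matched to its sample by name (0 columns unmatched). Total RNA was extracted with RNeasy and sequenced by Illumina protocols, per the labels' protocols. TopHat2 2.0.4 and Cuffdiff were used with mm10, per the submitters' processing notes, and the Cuffdiff version, annotation and strand setting are not given in the sources used here. FPKM are scaled by the authors to gene length and mapped fragments, and 0.001 stands for 0 in the table. The mice carry FVB/n alleles, and their effect on alignment to mm10 was not tested.

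Values were taken as log2(FPKM + 1) (pseudocount 1). Rows that reached 1 FPKM in 4 or more libraries were fitted with limma 3.58.1 (R 4.3.3), moderated with a trend, in 5 groups and 10 comparisons, and p-values were adjusted by Benjamini-Hochberg over all rows. The fit was tested on simulated data. Ratios of genes were compared with exact permutation tests (SciPy 1.17.1), and figures drawn with matplotlib 3.10.9. The permutations were unpaired and took no account of the sample name prefix. Named are the 10 genes, the sort markers, the 2 genes of each list with the largest moderated statistic in a comparison, genes whose values stand beside a result, and the 10 rows most alike in pattern. The genes and lists were chosen with earlier results of these data known. Alternatives changed the pseudocount, filter, scaling, blocks, groups fitted and libraries. Libraries with the same sample name prefix deviated together from their group means (correlation over 0.1) in 34 of 38 pairs and in every pair of 7 of the 10 comparisons, not in Kit+Sca1+ or Kit+Sca1- against MacHigh or Kit+Sca1- against unsorted.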

Additional observations from a re-analysis of the deposited data

Results flagged for a closer look

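In groups of 4 or 5 libraries, a library was marked where its gap to the nearest other exceeded Dixon's 95% critical share of the group's range. Chance marks about 1 in 20 groups, and 10 of 50 groups of values of the 10 genes were marked. Of these, 8 were Kit+Sca1- replicate 5, and the libraries that share its prefix were also high in other groups. It had 1236 FPKM of H2-Aa (next highest library 466), 741 of H2-Ab1 (290.1), 228.5 of H2-Eb1 (88.6) and 2136 of Cd74 (754). It also had 38.5 FPKM of H2-DMb1 (next 20.0), 16.1 of H2-DMb2 (7.87), 21.9 of H2-Ob (7.03) and 18.5 of Ciita (7.72). The genes are not independent, so these are 1 library standing apart rather than 8 events.

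Kit-Sca1- replicate 5 was marked for H2-DMb1, at 30.2 FPKM with the next library at 20.2 FPKM. Kit+Sca1+ replicate 1 was marked as low for H2-Ab1, at 2487 FPKM with the next library at 4474 FPKM.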

How the results depend on the processing

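No value of the 10 genes changed sign while called, and 0 of the fitted differences moved by over 1.5-fold when a library was left out, although the ratio of means of Kit+Sca1+ to Kit+Sca1- did without Kit+Sca1- replicate 5. Of the gene and comparison values under the alternatives 1693 kept their side of the threshold, 35 lost the call and 32 gained it. Values that were not called could change sign, as Cd74, H2-Oa and H2-Ob did in Kit+Sca1- against Kit-Sca1- without Kit+Sca1- replicate 5. The counts of 10 of 10 (the F test, all comparisons of Kit+Sca1- or Kit-Sca1- with MacHigh or unsorted, and Kit+Sca1+ with Kit+Sca1-, Kit-Sca1- or unsorted) stayed at 10 under every alternative, leave-one-out fits included.

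For Kit+Sca1+ against MacHigh the count of 3 became 6 with libraries scaled to the same FPKM sum and 6 with the prefix as a replicate block. It became 8 with the title number as a replicate block and 5 with only the 2 groups fitted. The shares of all rows called were 41.6%, 56.7%, 48.4% and 45.6% in that order. The count ran from 1 to 5 when a library was left out. H2-Ab1 lost its call with no filter (adjusted p = 0.0522) and with quantile normalization (0.147, limma), and kept it in 3 of 9 fits without a library, Ciita in 4 of 9. With quantile normalization H2-Eb1 and H2-Ob gained the call (adjusted p = 0.0340 and 0.0236, limma). For Kit+Sca1- against Kit-Sca1- the count of 0 became 2 (scaled sums), 1 (prefix as a replicate block) and 1 (title number as a replicate block, H2-DMa). The shares of all rows called were 51.7%, 60.2% and 55% in that order. The count ran from 0 to 1 when a library was left out, with 1 without Kit-Sca1- replicate 2 or 5 or Kit+Sca1- replicate 5. For MacHigh against unsorted the 9 ran from 5 to 10. H2-Oa there gained the call with either block, with quantile normalization and with 2 groups fitted, while H2-Ob lost it with a pseudocount of 0.1, no filter or scaled sums, H2-Ab1 with scaled sums and Cd74 with quantile normalization. The causes were not tested. The title numbers paired fewer libraries (22 of 46 pairs over 0.1) and neither block changed another call.

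Scaled sums moved the median of all rows by 0.11 (Kit+Sca1+ against MacHigh), 0.31 (Kit+Sca1- against MacHigh), -0.20 (Kit+Sca1+ against Kit+Sca1-), 0.22 (Kit+Sca1- against Kit-Sca1-), 0.13 (Kit+Sca1- against unsorted) and -0.18 (MacHigh against unsorted), under 0.1 elsewhere. The share of calls that were higher was then 63%, 71.9%, 32%, 71.6%, 62.9% and 24.3%, against 51.3%, 51.7%, 48.5%, 47.7%, 49.7% and 53.9%, and for Kit-Sca1- against MacHigh 58.6% against 48.3%, Kit+Sca1+ against unsorted 41% against 52.3% and Kit-Sca1- against unsorted 9.01% against 38.9%. Quantile normalization gave 64.6% for Kit+Sca1- and 53.2% for Kit-Sca1- against unsorted, where the prefix block gave 51.5%. Rows called for Kit-Sca1- against unsorted numbered 1692, 1070 with a mean of 5 FPKM as filter and 3115 (26.9%) with the prefix block. Without read counts, depth and counting error are unknown, and genes near 3 FPKM are measured least surely.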
